A study of Bos taurus with 6 samples.

Results

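Pleiotrophin (PTN) and midkine (MDK), the receptor PTPRZ1, the syndecans SDC1, SDC2, SDC3 and SDC4 and the glypicans GPC1, GPC3 and GPC4 were examined in the bovine embryonic stem cell line F7. The 10 genes were chosen by name as the heparin-binding ligands, their receptor and the cell surface proteoglycans, and were matched by symbol in the deposited TPM table and by Entrez identifier among the 19163 genes of the count table. All 10 were found in both tables and all 10 had enough counts to be tested. F7 comes from in vitro fertilized Holstein Friesian embryos. In both groups the cells were grown in customized mTeSR1 basal medium with recombinant human FGF and the Wnt inhibitor IWR1, and a ROCK inhibitor was added at passaging. MC-F7 cells were grown on C57 mouse embryonic fibroblasts (MEFs) that had been stopped from dividing with mitomycin C and were still alive, and MT-F7 cells were grown on MEFs fixed with methanol, which are dead. Both had been kept for 15 passages, and each group has 3 libraries. MC-F7 medium was changed daily and MT-F7 medium every other day, so the effect of the feeder and that of the feeding schedule cannot be told apart. F7 is 1 line, and the study speaks of technical replicates for its data in general without saying how these libraries were replicated, so the p-values measure only the spread between these libraries, which may be technical.

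Pleiotrophin and midkine are the only members of a family of small secreted growth factors that bind heparin. Both are made in large amounts in embryonic tissues and in the developing nervous system. They bind the glycosaminoglycan chains of proteoglycans and act through PTPRZ1, a receptor tyrosine phosphatase that itself carries chondroitin sulfate. Syndecans are transmembrane proteins and glypicans are held in the membrane by a lipid anchor. Both carry heparan sulfate chains, whose sulfation pattern sets which growth factors, among them FGFs, Wnts and hedgehogs, are held at the cell surface.

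Library totals ran from 21958386 to 24933430 counts. Levels are given as counts per 1000000 with TMM factors (CPM), and differences between the groups as the log2 fold change of MT-F7 over MC-F7 with its standard error (SE) from edgeR's quasi-likelihood test, with the p adjusted by Benjamini-Hochberg over 13001 tested genes. A gene was called at an adjusted p under 0.05. Genes of the mitochondrial genome took 28.3% and 27.9% of the counts in replicate 3 of MC-F7 and of MT-F7, and 16.3% to 23.2% in the other 4 libraries. As a check of the cell type, 7 markers of pluripotent cells could be examined. Their summed level was 959 to 1603 CPM in MC-F7 and 582 to 631 CPM in MT-F7, and 6 of the 7 were called lower in MT-F7. The defining trophectoderm markers CDX2 and HAND1 had 0 counts in all 6 libraries, while the sum of that list, nearly all of it KRT7, was 51.2 to 77.3 CPM in MC-F7 and 6.79 to 8.53 CPM in MT-F7. The summed level of 10 fibroblast markers was 222 to 299 CPM in MC-F7 and 341 to 391 CPM in MT-F7. In that list 3 of 9 tested were called higher. These were COL3A1, POSTN and PDGFRB (log2 fold changes 1.65, 1.24 and 0.93), while COL6A3 and THY1 were lower and not called. Most of the sum was COL1A1 (means 205 and 268 CPM), which was not called (adjusted p = 0.0942, edgeR). The sum of 6 neural progenitor markers was 354.5 to 428.5 and 545 to 604 CPM, with 3 of 5 tested called higher. Most of that was NES (means 312 and 412 CPM), also not called (adjusted p = 0.0831, edgeR). The called ones were PAX6, PAX3 and FABP7 (log2 fold changes 2.92, 3.60 and 0.84), with PAX3 at 7, 9 and 0 counts in MC-F7. POU3F2 was lower and not called (log2 fold change -0.71). Among all tested genes 11.9% were called higher and 11.3% lower. The part of such cell types in the differences given here was not tested. In bulk RNA, fewer cells of a type and less RNA per cell cannot be told apart. The study reports that a larger share of reads aligned to the bovine genome in MT-F7 than in MC-F7. It proposes that fixed feeders reduced contamination by feeder cells. Whether reads of mouse feeder cells entered the MC-F7 counts of any gene was not tested.

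PTN, MDK, PTPRZ1, SDC2 and GPC3 rose in MT-F7 and none of the 10 genes was called lower. Of all tested genes 23.2% were called, 11.9% higher and 11.3% lower, against 5 of these 10. That is 1553 genes higher and 1463 lower, a split that leaned further to higher with limma, at 1395 and 723 on log2(TPM + 1), 1691 and 883 on log2(TPM + 0.1) and 1528 and 1006 on rescaled TPM. GPC3 had the largest fold change at 2.96-fold, followed by PTN at 2.21-fold. The other 5 genes were not called. The study had already reported PTN as higher in MT-F7, by a p-value and a fold change limit that differ from the threshold used here. Since the genes were chosen with earlier results of these data known, their share of calls is a description only. The median log2 fold change of the 10 genes was 0.53, and that of all tested genes was -0.0026. In 6 of the 10 genes the groups did not overlap, as was the case in 40% of the tested genes. When both replicate 3 libraries were left out, a setting chosen after the data were seen, 5 genes were again called, but MDK was lost and SDC4 was called lower.

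**Figure D1:**
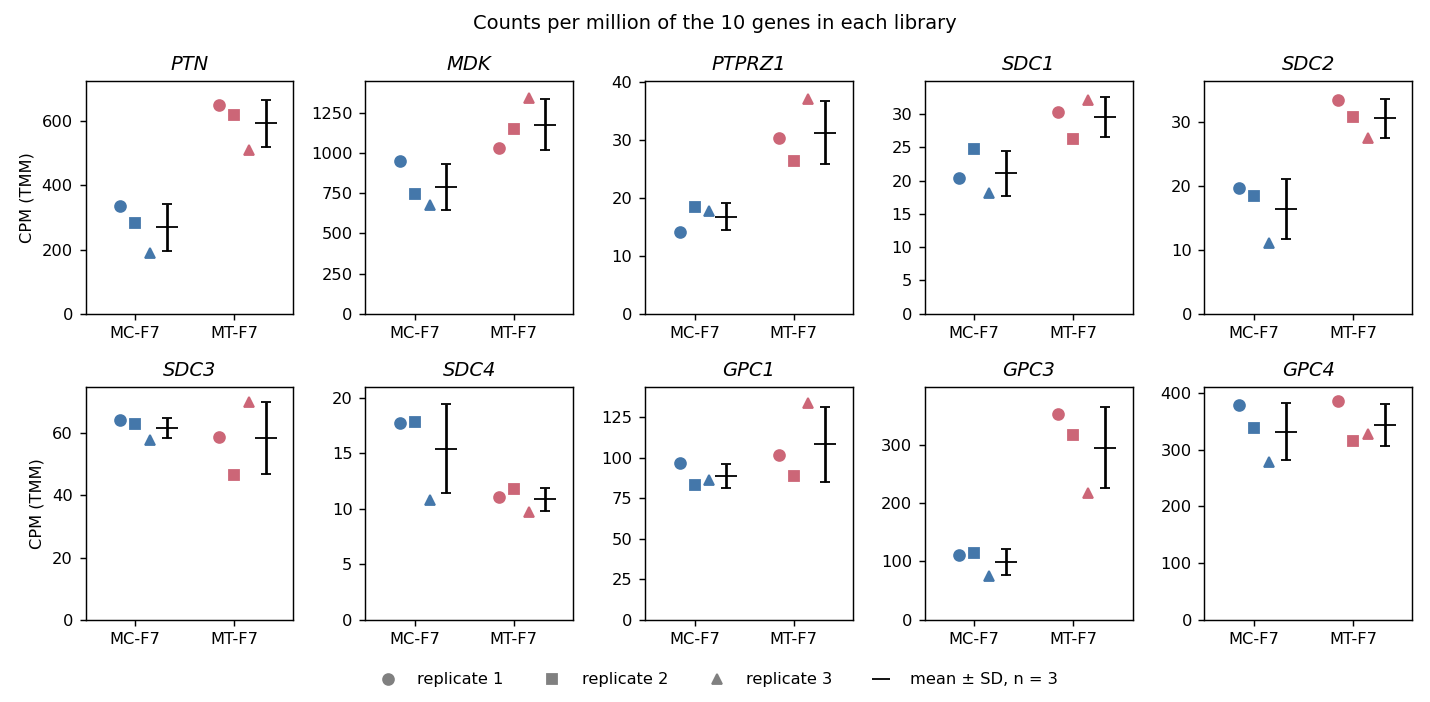
Each panel plots the level of 1 gene in CPM (vertical axis, starting at 0) for the 3 MC-F7 (blue) and the 3 MT-F7 (red) libraries. Marker shape gives the replicate, and the black bar the mean ± SD of 3 libraries. PTN, MDK, PTPRZ1, SDC1, SDC2 and GPC3 show no overlap between the groups, while SDC3, SDC4, GPC1 and GPC4 overlap.

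**Figure D2:**
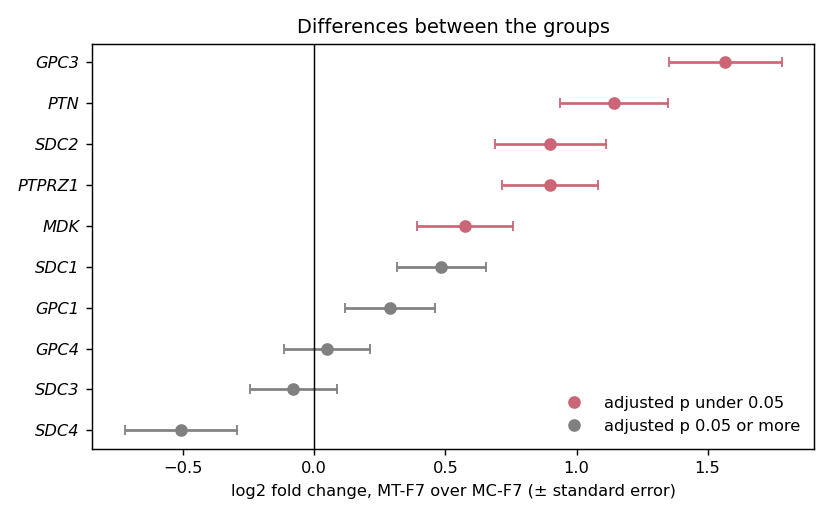
The log2 fold change of MT-F7 over MC-F7 (horizontal axis) is drawn with its standard error for the 10 genes. Red points have an adjusted p under 0.05, and they run from 0.57 for MDK to 1.57 for GPC3.

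PTN (Entrez gene 280904) is the ligand first described for its effect on neurite growth. Its level was 335, 283 and 189 CPM in the MC-F7 libraries and 650.2, 621 and 512 CPM in the MT-F7 libraries. The groups were fully apart, and replicate 3 was the lowest of both groups. The log2 fold change was 1.14 (SE 0.206, adjusted p = 0.00159, edgeR). PTN passed in each of the 6 fits that left out 1 library, with log2 fold changes from 0.94 to 1.33.

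MDK (280852), the paralog of PTN, was measured at 950.2, 748 and 675 CPM in MC-F7 against 1035, 1154 and 1346 CPM in MT-F7. The groups did not overlap, and the MT-F7 libraries began just above the highest MC-F7 library. The log2 fold change was 0.57 (SE 0.182, adjusted p = 0.0368, edgeR). Of the 6 fits that left out 1 library it passed only in the one without MC-F7 replicate 1. Without MC-F7 replicate 2 or 3 or MT-F7 replicate 1, 2 or 3 the adjusted p was 0.153, 0.0827, 0.0559, 0.0831 and 0.09 (edgeR).

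PTPRZ1 (317725) had 14.0, 18.4 and 17.8 CPM in MC-F7 and 30.2, 26.3 and 37.1 CPM in MT-F7. All MT-F7 libraries were above the highest MC-F7 library. The log2 fold change was 0.90 (SE 0.182, adjusted p = 0.00342, edgeR), and the gene passed in all 6 fits that left out 1 library.

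Levels of different genes were compared per length, on the deposited TPM values rescaled to 1000000 in each library. On this scale PTN and MDK together came to 983, 831 and 635 in the MC-F7 libraries and to 1438, 1544 and 1445 in the MT-F7 libraries. PTN made up 31.6%, 33.2% and 26.9% of that sum in MC-F7 against 45.2%, 41.4% and 33.3% in MT-F7. The mean share was 30.6% ± 3.27 in MC-F7 against 40.0% ± 6.09 in MT-F7 (SD, n = 3), and the lowest MT-F7 library was just above the highest MC-F7 library. The ligands were far above their receptor in the same libraries. The ratio of their summed level to that of PTPRZ1 was 395, 243 and 207 in MC-F7 against 249, 298 and 217 in MT-F7, and these ranges overlapped.

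These sums and shares, 15 quantities in all, were compared between the groups by an exact permutation test, two-sided. With 3 libraries against 3 its smallest p is 0.1, so no such quantity can pass. A p of 0.1 (Benjamini-Hochberg adjusted p = 0.125, exact permutation test) was obtained for the ligand sum, for the PTN share and for 10 other quantities. It means only that the groups did not overlap, as was the case by CPM in 40% of the tested genes. The quantities are not independent, since the shares of a sum move against each other and the sums reuse the same genes. For the ratio of ligands to PTPRZ1 the exact permutation p was 0.9.

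The next question was whether other proteins reported to bind pleiotrophin or midkine differed too. Of 11 such genes, 9 were tested and 4 were called, 3 higher and 1 lower, with a median log2 fold change of 0.46. That is 44.4% called, against 23.2% of all tested genes. LRP2, also known as megalin, an endocytic receptor of absorptive epithelia and of the embryonic neural tube, went from 22.7 ± 6.18 to 56.8 ± 11.1 CPM (log2 fold change 1.33, SE 0.219, adjusted p = 0.000854, edgeR). Its relative LRP1 went from 60.7 ± 16.2 to 107 ± 28.4 CPM (log2 fold change 0.81, adjusted p = 0.0198, edgeR). That call was lost without MC-F7 replicate 1, without MC-F7 replicate 2 and without MT-F7 replicate 3 (adjusted p = 0.0653, 0.0575 and 0.0648, edgeR). The integrin subunit ITGB3 rose with a log2 fold change of 0.96 (adjusted p = 0.00953, edgeR). NRP1, a co-receptor for semaphorins and VEGF, fell from 15.0 ± 4.5 to 5.28 ± 1.43 CPM (log2 fold change -1.51, SE 0.262, adjusted p = 0.00123, edgeR). NCL, or nucleolin, was the most abundant gene of the list and had 684 ± 74.8 CPM in MC-F7 against 508 ± 109 CPM in MT-F7, with overlapping groups (adjusted p = 0.112, edgeR). ALK, a receptor tyrosine kinase also named as a pleiotrophin receptor, had 1, 0 and 4 counts in MC-F7 against 0, 0 and 0 in MT-F7, which is too few reads to show a difference. A count of 0 allows up to 3 counts, or 0.12 to 0.137 CPM, and this limit covers counting error only.

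Among the 4 syndecans SDC2 was the only one called. SDC2 (615785), the syndecan of mesenchymal and neural cells, had 19.7, 18.4 and 10.99 CPM in MC-F7 and 33.4, 30.8 and 27.4 CPM in MT-F7. The groups did not overlap, and replicate 3 was again the lowest of both. The log2 fold change was 0.90 (SE 0.210, adjusted p = 0.0079, edgeR), and it passed in all 6 fits that left out 1 library.

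SDC1 (529759), the main syndecan of epithelia, had 20.3, 24.8 and 18.2 CPM in MC-F7 and 30.4, 26.3 and 32.1 CPM in MT-F7. No library of one group reached into the range of the other, yet the difference missed the threshold (log2 fold change 0.48, SE 0.170, adjusted p = 0.0569, edgeR). It was called by DESeq2 (adjusted p = 0.0421).

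SDC4 (508133), a component of focal adhesions, was measured at 17.7, 17.8 and 10.8 CPM in MC-F7 and at 11.1, 11.8 and 9.68 CPM in MT-F7. MC-F7 replicate 3 lay within the range of the MT-F7 libraries, and the difference was not called (log2 fold change -0.51, SE 0.212, adjusted p = 0.103, edgeR). Without that library the log2 fold change was -0.72 and the gene was called (adjusted p = 0.0132, edgeR).

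SDC3 (618198), the syndecan best known from the nervous system and itself a pleiotrophin receptor, had 64.1, 63.0 and 58.0 CPM in MC-F7 and 58.6, 46.7 and 70.0 CPM in MT-F7. The MT-F7 libraries were spread around the MC-F7 libraries (log2 fold change -0.079, SE 0.168, adjusted p = 0.776, edgeR). The sign of this small difference was not stable, as it was positive without MT-F7 replicate 2 and in the deposited TPM values, though not in those rescaled per library.

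The makeup of the syndecans was then examined. Per length, the summed level of the 4 genes was 46.6, 49.4 and 32.5 in MC-F7 against 56.9, 53.1 and 51.2 in MT-F7, a log2 ratio of the means of 0.33, which was 0.16 without MC-F7 replicate 3. SDC2 took 25.6% ± 3.2 of that sum in MC-F7 against 40.8% ± 3.72 in MT-F7. SDC4 took 28.0% ± 2.58 in MC-F7 against 16.8% ± 2.17 in MT-F7 (SD, n = 3). Neither share overlapped between the groups (exact permutation p = 0.1 for each, the smallest possible). In MC-F7 the levels of SDC3, SDC4, SDC2 and SDC1, in that order, overlapped between neighbors, whereas in MT-F7 SDC2 stood above SDC3 in every library.

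GPC3 (615239) encodes the glypican lost in Simpson-Golabi-Behmel overgrowth syndrome, and the protein binds hedgehog and Wnt ligands. Its level was 110.2, 114 and 74.4 CPM in MC-F7 against 352, 316 and 217 CPM in MT-F7. The lowest MT-F7 library was well above the highest MC-F7 library, and replicate 3 was the lowest of both groups. The log2 fold change was 1.57 (SE 0.214, adjusted p = 0.000215, edgeR), higher than that of 96.9% of the tested genes. It passed in all 6 fits that left out 1 library, with values from 1.39 to 1.74.

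GPC4 (540179), the neighbor of GPC3, had 378, 337 and 279 CPM in MC-F7 against 385, 315 and 328 CPM in MT-F7. In the ARS-UCD2.0 annotation of RefSeq both genes are on chromosome X with 1 pseudogene between them. The groups overlapped throughout (log2 fold change 0.049, SE 0.164, adjusted p = 0.861, edgeR), and the sign turned without MC-F7 replicate 3 or without MT-F7 replicate 1. GPC3 took a larger share of the 3 glypicans in every MT-F7 library.

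GPC1 (518114), a glypican of brain and many other tissues, had 96.9, 83.0 and 86.3 CPM in MC-F7 and 102, 89.0 and 134 CPM in MT-F7. The groups overlapped and the gene was not called (log2 fold change 0.29, SE 0.171, adjusted p = 0.255, edgeR).

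Per length, GPC1, GPC3 and GPC4 together came to 303, 295 and 216 in the MC-F7 libraries and to 525, 467 and 372 in the MT-F7 libraries. GPC4 held 63.0% ± 1.48 of this sum in MC-F7 against 41.4% ± 3.8 in MT-F7, and GPC3 held 27.3% ± 2.69 and 51.1% ± 6.32 (SD, n = 3). Both shares were apart between the groups in every library, and for each the exact permutation p was 0.1, the smallest possible. GPC4 was above GPC3 in all MC-F7 libraries, whereas in MT-F7 the ranges of the 2 genes overlapped, 163 to 281 for GPC3 and 170 to 212 for GPC4. Over both groups the summed glypican level was 5.97 to 9.23 times the summed syndecan level in the same library.

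**Figure D3:**
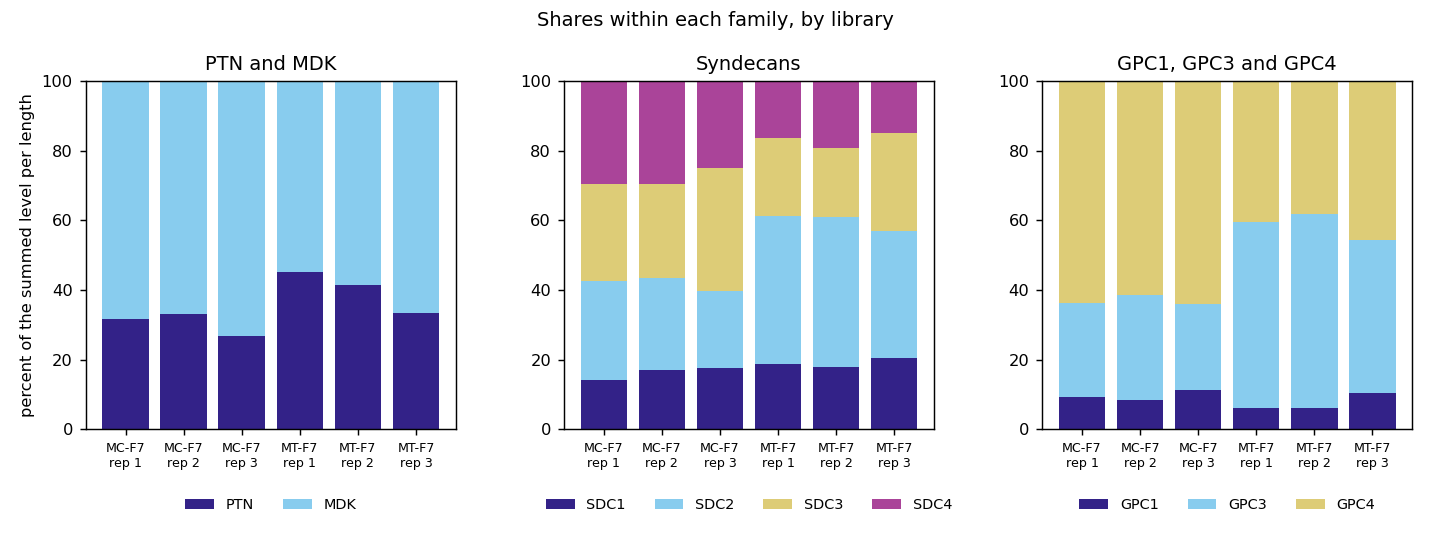
Stacked bars give, for each library (horizontal axis), the percent of the summed level per length that each gene takes. The ligands are on the left, the syndecans in the middle, and GPC1, GPC3 and GPC4 on the right. The GPC3 share is 24.8% to 30.2% in MC-F7 and 43.9% to 55.7% in MT-F7, and the SDC2 share is 22.1% to 28.4% and 36.5% to 43.3%.

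In the order of levels per length, MDK came first in every library and PTN second by mean in both groups. In MC-F7 they were followed by GPC4, GPC3, GPC1, SDC3, SDC4, SDC2, SDC1 and PTPRZ1, and in MT-F7 by GPC3, GPC4, GPC1, SDC2, SDC3, SDC1, SDC4 and PTPRZ1. PTN and GPC4 overlapped in MC-F7 (171 to 311 for PTN and 138 to 193 for GPC4) and were apart in MT-F7, where the lowest PTN value was 481. By mean level per length over the 6 libraries MDK ranked 138 and PTN 217 among 21182 genes with their own symbol, while PTPRZ1 ranked 8217.

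Further core proteins that carry heparan sulfate were looked at next. Of 12 such genes, 8 were tested, 2 were called higher and 1 lower, and the median log2 fold change was 0.36. The share called was 37.5%, against 23.2% of all tested genes. COL18A1, the basement membrane collagen that gives rise to endostatin, had the highest counts of the list. It fell from 1617, 1685 and 2114 CPM in MC-F7 to 877, 711 and 1350 CPM in MT-F7 (log2 fold change -0.88, SE 0.230, adjusted p = 0.0142, edgeR), but did not pass without MT-F7 replicate 1 (adjusted p = 0.0653, edgeR) or without MT-F7 replicate 2 (adjusted p = 0.0675, edgeR). AGRN, or agrin, the organizer of the neuromuscular junction, rose from 163 ± 20.2 to 290.2 ± 63.4 CPM (log2 fold change 0.83, adjusted p = 0.00515, edgeR). TGFBR3, the betaglycan co-receptor, rose from 2.12 ± 0.835 to 4.12 ± 0.612 CPM (adjusted p = 0.0481, edgeR) and passed only without MC-F7 replicate 2 among the fits that left out 1 library, where the adjusted p was otherwise 0.06 to 0.172.

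The enzymes that build heparan sulfate were taken in 2 lists. For the linker to the core protein and the supply of sugar and sulfate donors, 8 of 11 genes were tested and 2 were called, both higher, which is 25% against 23.2% of all tested genes. SLC35B2 carries the sulfate donor into the Golgi and rose from 70.6 ± 3.92 to 116 ± 21.3 CPM (log2 fold change 0.72, SE 0.161, adjusted p = 0.00634, edgeR). The other was PAPSS1, which makes that donor. It was named after its values were seen, since its groups overlapped in CPM (log2 fold change 0.64, adjusted p = 0.0357, edgeR). Its call was lost without MC-F7 replicate 2 or 3 and without MT-F7 replicate 1 or 2 (adjusted p = 0.11, 0.094, 0.136 and 0.117, edgeR). B3GAT3, which completes the linker, had the highest level of the list, with 96.4 ± 17.4 and 108 ± 15.1 CPM (adjusted p = 0.543, edgeR).

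Of 21 genes for the polymerization, epimerization and sulfation of the chain, 17 were tested and 3 were called, which is 17.6% against 23.2% of all tested genes, with a median log2 fold change of 0.20. EXT1, a subunit of the chain polymerase, rose from 18.3, 19.9 and 18.3 CPM in MC-F7 to 33.9, 33.0 and 29.5 CPM in MT-F7 (log2 fold change 0.77, SE 0.152, adjusted p = 0.00291, edgeR). Its partner EXT2, named after its values were seen, had a log2 fold change of 0.10 (adjusted p = 0.748, edgeR), whose sign turned without MC-F7 replicate 1 or without MT-F7 replicate 3. NDST4, an N-deacetylase and N-sulfotransferase, had 0, 5 and 0 counts in MC-F7 against 36, 29 and 26 in MT-F7 (adjusted p = 0.00278, edgeR). Its fitted log2 fold change of 3.97 rested on those 5 counts and was 7.86 without MC-F7 replicate 2, against libraries at 0. NDST4 passed the count filter only through its MT-F7 libraries, so its adjusted p is a description only. With at least 10 counts required in every library it was not tested, and 2 of 12 chain enzymes were called. HS3ST6, a 3-O-sulfotransferase, fell from 89, 71 and 75 counts to 13, 13 and 20 (log2 fold change -2.47, SE 0.347, adjusted p = 0.000261, edgeR). HS6ST1 was the most abundant of these genes and had 80.4 ± 6.45 and 89.8 ± 5.76 CPM (adjusted p = 0.461, edgeR).

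A further 11 genes were listed for the removal of sulfate or of the whole proteoglycan from the cell surface. Of these 8 were tested and 5 were called, 3 higher and 2 lower, with a median log2 fold change of 0.35. The share called was 62.5%, against 23.2% of all tested genes. SULF2 and SULF1 are secreted sulfatases that take 6-O-sulfate off heparan sulfate outside the cell. SULF2 had 19.1, 23.1 and 25.1 CPM in MC-F7 and 101, 106 and 94.8 CPM in MT-F7. This was the largest rise in the list (log2 fold change 2.17, SE 0.160, adjusted p = 1.92e-06, edgeR). SULF1 rose from 3.51 ± 0.986 to 6.84 ± 1.66 CPM (log2 fold change 0.96, adjusted p = 0.0222, edgeR). With 1 library left out its log2 fold change was 0.76 to 1.16, and the call was lost without MC-F7 replicate 1, without MC-F7 replicate 2 and without MT-F7 replicate 3 (adjusted p = 0.0659, 0.0674 and 0.08, edgeR).

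GDPD5, also called GDE2, releases glypicans by cutting the lipid anchor. NOTUM was put in the same list, and both genes fell. GDPD5 went from 50.5, 48.4 and 59.3 CPM in MC-F7 to 8.88, 8.96 and 13.3 CPM in MT-F7 (log2 fold change -2.35, SE 0.195, adjusted p = 4.58e-06, edgeR). NOTUM, which inactivates Wnt proteins, had 20, 27 and 38 counts in MC-F7 against 6, 10 and 13 in MT-F7. Its log2 fold change was -1.67 (SE 0.486, adjusted p = 0.0248, edgeR). Its call was lost without MC-F7 replicate 2 or 3 and without MT-F7 replicate 1 or 2 (adjusted p = 0.0604, 0.0917, 0.104 and 0.0752, edgeR). The protease MMP9 rose from 37, 96 and 19 to 135, 151 and 144 counts (log2 fold change 1.40, adjusted p = 0.0238, edgeR), and did not pass without MC-F7 replicate 1 or without MT-F7 replicate 1 or 2 (adjusted p = 0.0705, 0.0517 and 0.0507, edgeR). Without MC-F7 replicate 2 its log2 fold change was 2.18. MMP14, the most abundant of the list, had 124 ± 26.7 and 146 ± 21.7 CPM (adjusted p = 0.403, edgeR).

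**Figure D4:**
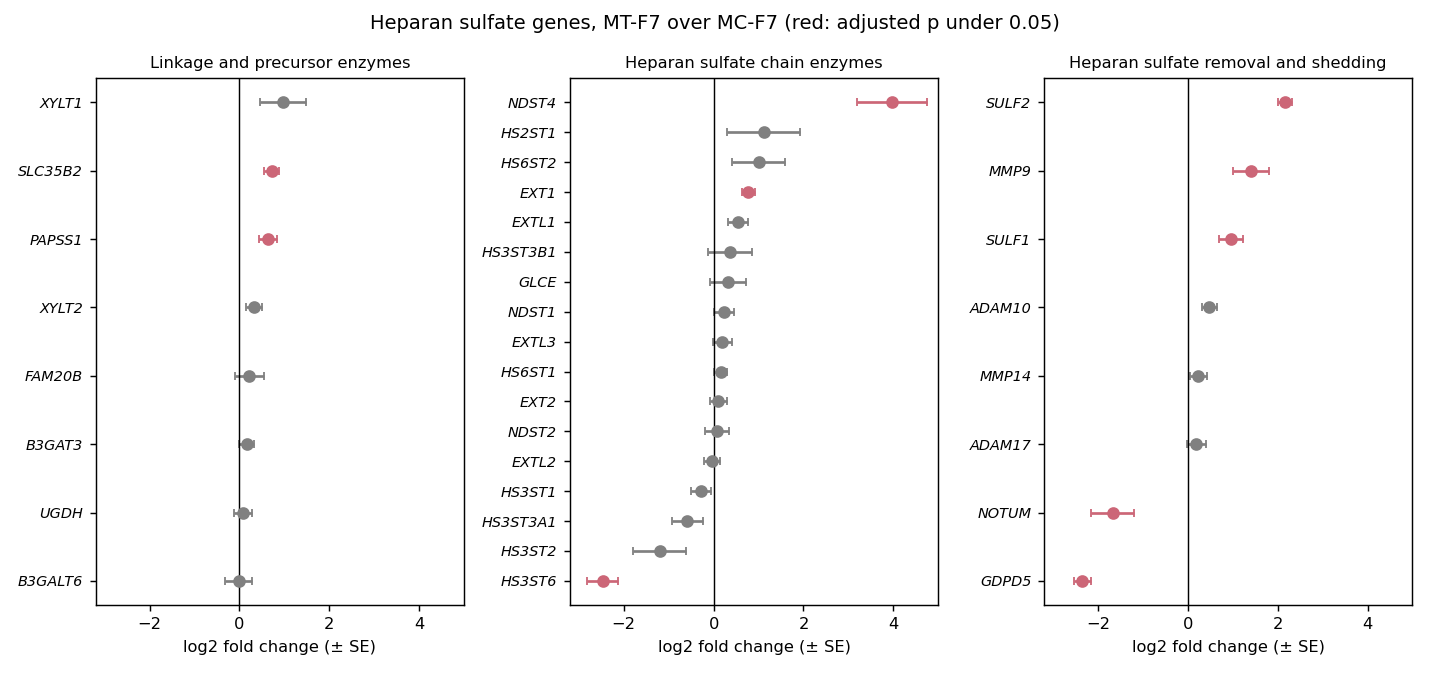
Points are log2 fold changes of MT-F7 over MC-F7 with their standard errors (horizontal axis, the same in each panel) for the tested linkage and precursor genes (left), chain enzymes (middle) and genes of removal and shedding (right). Red marks an adjusted p under 0.05, which 2 of 8, 3 of 17 and 5 of 8 genes reached, against 23.2% of all tested genes.

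Chondroitin sulfate, the chain that PTPRZ1 carries, binds pleiotrophin as well. Of 22 genes for its core proteins and enzymes, 18 were tested and 9 were called, 6 higher and 3 lower. This was 50% against 23.2% of all tested genes, with a median log2 fold change of 0.17. The core protein NCAN, or neurocan, rose from 14.2 ± 1.03 to 41.0 ± 4.87 CPM (log2 fold change 1.53, SE 0.163, adjusted p = 3.11e-05, edgeR). VCAN, or versican, rose from 38.8 ± 8.27 to 83.7 ± 17.2 CPM (log2 fold change 1.11, adjusted p = 0.00131, edgeR). BGN, or biglycan, was the most abundant of the list and rose with a log2 fold change of 0.66 (adjusted p = 0.00859, edgeR). BCAN, or brevican, fell from 46, 42 and 78 counts to 24, 21 and 10 (log2 fold change -1.74, adjusted p = 0.0102, edgeR). It passed in 12 of 16 other fits, among them the 6 that left out 1 library. It was not called in the limma fits or without both replicate 3 libraries. The 4-O-sulfotransferase CHST13 rose from 3.75 ± 1.86 to 12.7 ± 4.7 CPM (log2 fold change 1.76, adjusted p = 0.00293, edgeR), and the uronyl 2-sulfotransferase UST fell from 41.8 ± 4.82 to 14.6 ± 0.406 CPM (log2 fold change -1.52, SE 0.158, adjusted p = 2.52e-05, edgeR).

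Proteins that bind the cytoplasmic tail of syndecans were tested for all 7 genes listed. Among them 1 was called higher and 2 lower, which is 42.9% against 23.2% of all tested genes. Their median log2 fold change was -0.28. SDCBP2, the second syntenin, fell from 3.84 ± 1.09 to 0.984 ± 0.301 CPM (log2 fold change -1.95, SE 0.346, adjusted p = 0.00142, edgeR). TIAM1, an activator of RAC1, rose from 16.8 ± 3.08 to 26.8 ± 1.02 CPM (log2 fold change 0.67, adjusted p = 0.0136, edgeR). SYNJ2BP was at the edge of the threshold (log2 fold change -0.57, adjusted p = 0.0495, edgeR) and passed only without MC-F7 replicate 3 or without MT-F7 replicate 2 among the fits that left out 1 library, where the adjusted p was otherwise 0.0865 to 0.196. GIPC1, the most abundant of the list, had 62.2 ± 0.38 and 72.7 ± 8.67 CPM (adjusted p = 0.301, edgeR).

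Outside these lists, the 3 tested genes whose level was most like that of PTN over the 6 libraries were DNAJB11, an endoplasmic reticulum chaperone, SFRP1, a secreted Wnt antagonist, and PRPH, or peripherin, a neuronal intermediate filament. Pearson's r of log2(CPM + 0.1) with PTN was 0.999, 0.998 and 0.997 over 6 libraries. SFRP1 had 312, 273 and 207 CPM in MC-F7 against 457, 440 and 401 CPM in MT-F7, with replicate 3 the lowest of both groups as for PTN. SFRP1 passed in all 6 fits that left out 1 library and PRPH in 2, while DNAJB11 was not called (adjusted p = 0.0583, edgeR). The correlations are a description only, since all points share the difference between the groups, and 842 of 12619 genes compared reached an r of 0.9.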

How the data were processed

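RNA-seq libraries of MC-F7 and MT-F7 cells (3 each) were used. The dissociated cells were left on gelatin and the floating ones were taken for RNA. The authors aligned reads with HISAT2 2.0.5 to an Ensembl Bos taurus genome, counted them with featureCounts 1.5.0-p3 and deposited raw counts per Entrez gene. The build is not given in the sources used here. The deposited TPM values (21357 genes) kept a constant ratio to the counts (within 0.001) in all libraries for 9681 of 9682 genes with at least 50 counts, and columns did not add up to 1000000, so they were treated as counts scaled by gene length but not per library. They were rescaled for levels per length. Symbols came from RefSeq by Entrez identifier, and 89 genes had none.

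Genes were kept by filterByExpr (minimum count 10, total 15) and tested with edgeR 4.0.16 (R 4.3.3), with TMM factors of 0.971 to 1.04. limma 3.58.1, DESeq2 1.42.0, scipy 1.17.1 and pandas 2.3.3 were also used. The SE is the log2 fold change divided by the root of F. Scripts were tested on simulated data. The genes and lists were chosen with earlier results of these data known. Named genes were the 10 members and, from each other list, up to 5 called genes without overlap between the groups, taken by size of the log2 fold change, plus the most abundant one, and the 3 genes most like PTN. Alternatives were RLE factors, DESeq2, other count filters, a block for the replicate number, leaving out 1 library at a time, limma on log2(TPM + 1) and log2(TPM + 0.1), removal of mitochondrial genes and a fold change limit. Rescaled TPM with limma and leaving out both replicate 3 libraries were added after the data were seen. No sequence table was used here.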

Additional observations from a re-analysis of the deposited data

How the results depend on the processing

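The number of the 10 genes called was 5 in the main test, 4 to 5 in the 6 fits that left out 1 library, 6 with DESeq2, 7 with the replicate number as a block (6 higher, 1 lower), 3 with limma on log2(TPM + 1) and 2 with an absolute log2 fold change over 1. At an adjusted p under 0.05 with no fold change limit, PTN, PTPRZ1 and GPC3 passed in all 16 other fits, SDC2 in 15 and MDK in 9, and SDC3, GPC1 and GPC4 in none. With that limit only PTN and GPC3 remained called. SDC3 turned positive without MT-F7 replicate 2 (0.062), and in limma fits of log2(TPM + 1) (0.024) and log2(TPM + 0.1) (0.032), and was -0.24 to 0.062 with 1 library left out. GPC4 turned negative without MC-F7 replicate 3 (-0.066), without MT-F7 replicate 1 (-0.049) and without both replicate 3 libraries (-0.015), as did B3GAT3 (-0.015) and MMP14 (-0.012) in the last setting. EXT2 was -0.021 without MC-F7 replicate 1 and -0.026 to 0.26 with 1 library left out. Of 33 called genes followed through these fits, 18 passed in every fit that tested them, again without the fold change limit. NDST4 is among them with only 15 fits. The filter of at least 10 counts in every library left it untested.

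With an absolute log2 fold change over 1 the calls were 1489 of all tested genes, 2 ligand partners, 0 other core proteins, 0 linkage genes, 5 chondroitin sulfate genes and 1 syndecan partner. Limma on log2(TPM + 1) gave 1 ligand partner, 1 other core protein, 1 linkage gene and 2 genes of removal, on log2(TPM + 0.1) 1 other core protein and 1 linkage gene, and on rescaled TPM 1, 1 and 3 for other core proteins, linkage and removal. With 1 library left out, the calls were 1914 to 3093 of all genes (lowest without MC-F7 replicate 2), 1 to 3 other core proteins (lowest without MT-F7 replicate 1 or 2), 1 to 2 linkage genes and 3 to 5 genes of removal. The cause of these shifts was not tested.

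The deviations of libraries with the same replicate number had correlations across genes of 0.134, 0.0445 and 0.417 for replicates 1, 2 and 3. The correlation was highest for replicate 3, whose libraries also had the largest mitochondrial shares (28.3% for MC-F7, 27.9% for MT-F7). Whether the replicate numbers pair the samples was not tested, and the main test used no block for them. With the replicate block 4674 of all genes and 5 other core proteins were called, against 3016 and 3 in the main test. SDC1 (adjusted p = 0.0129) and SDC4 (adjusted p = 0.0246) passed in that block fit with edgeR. The log2 ratio of the syndecan sum was 0.16 to 0.44, and that of the glypican sum 0.60 to 0.87, with 1 library left out. At this depth a count of 0 allows up to 0.12 to 0.137 CPM.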

Other observations

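Several genes of these pathways were too low for the test. PAPSS2, HPSE and MMP7, which encode a second sulfate donor enzyme, heparanase and a protease known to shed syndecans, had 0 counts in all 6 libraries, which allows up to 0.12 to 0.137 CPM. The glypican GPC5 had 3, 0 and 0 counts in MC-F7 against 2, 4 and 0 in MT-F7, and serglycin (SRGN) 8, 1 and 1 and 3, 2 and 1, too few to show a difference. SPOCK1, a testican, had 0, 0 and 2 counts in MC-F7 against 9, 5 and 4 in MT-F7, with no test. The mean MT-F7 level was 1.76 times a floor of 3 counts in an MC-F7 library. That ratio leaves out the counting error of the MT-F7 libraries and is not a lower limit. HS3ST5, a further 3-O-sulfotransferase, had 12, 7 and 5 counts in MC-F7 against 1, 3 and 4 in MT-F7.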
